A study of Saccharomyces cerevisiae with 15 samples.

Results

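The 8 genes described here encode the yeast Hsp90 chaperones and a set of other heat-shock proteins: HSC82, HSP82, HSP104, HSP78, HSP42, HSP26, HSP12 and HSP30. They were chosen by name, from the 6256 genes on the arrays, by a rule that uses no level. Each was measured by 1 probe printed as 7 spots, and all 56 of their spots passed the quality filter on both arrays. The series compared methods of strand-specific RNA sequencing in budding yeast with reference levels from 2 arrays. Only the arrays were analysed here. The 13 sequencing libraries were not.

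Both arrays carried total RNA from the BY4741 strain of Saccharomyces cerevisiae in YPD, labelled with Cy3. Genomic DNA labelled with Cy5 served as the common comparison on the same spots. BY4741 is a haploid laboratory strain from which HIS3, LEU2, MET17 and URA3 were deleted, and YPD is a rich glucose medium. The series describes the RNA as coming from mid-log growth. The DNA is labelled as BY4741 in its source and as progenitor in its strain tag. DNA intensities at the 4 deleted genes ran from -3.11 to 3.56 on array 1 and from -2.35 to 7.39 on array 2, against 4184 and 4558 for the median gene. No heat shock or other stress was applied according to the labels, so the values describe 1 growth condition and give no response to heat. The dyes were not swapped, and both arrays lay on 1 slide. Nothing says that they held separate cultures, so an SD or p-value over the 2 arrays may measure technical spread alone.

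Heat-shock proteins are chaperones and related stress proteins. Hsp90 helps client proteins such as kinases reach their active form, together with a set of co-chaperones. Small heat-shock proteins bind unfolding proteins and hold them in a state from which others can refold them. The disaggregases of the ClpB type pull single chains out of aggregates with help from Hsp70 and Hsp40. In yeast, many heat-shock genes are induced by the heat-shock factor Hsf1, by the general stress factors Msn2 and Msn4, or by both. Several are also transcribed without stress.

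The 8 genes were spread from percentile 12.3 to percentile 97.4 of all gene levels. The level of a gene is given below as the log2 of RNA over DNA intensity, as the median of its spots, minus the same value of the median gene. A level of 0 is thus that of the median gene. Setting RNA against DNA at the same probe is not a correction for transcript length, and how far length affects these levels was not tested. HSC82 had the highest level, at 3.93 ± 0.08 (SD, n = 2 arrays), and HSP30 the lowest, at -3.88 ± 0.06. They lay 7.81 apart on the log2 scale, or 224-fold. HSC82, HSP82 and HSP104 were above the median gene by at least 1 at an adjusted p under 0.05 (limma over 6250 genes, Benjamini-Hochberg adjustment). HSP26, HSP12 and HSP30 were below it by the same rule, and HSP78 and HSP42 were not called. Over all genes, 28.2% were called above and 31.2% below. The 3 of 8 and 3 of 8 called here are thus close to the background shares. The adjusted p alone carries little information, since 94.3% of all genes had one under 0.05, the 8 genes among them. The median of the 8 levels was -0.71, against -0.0022 over all genes.

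**Figure D1:**
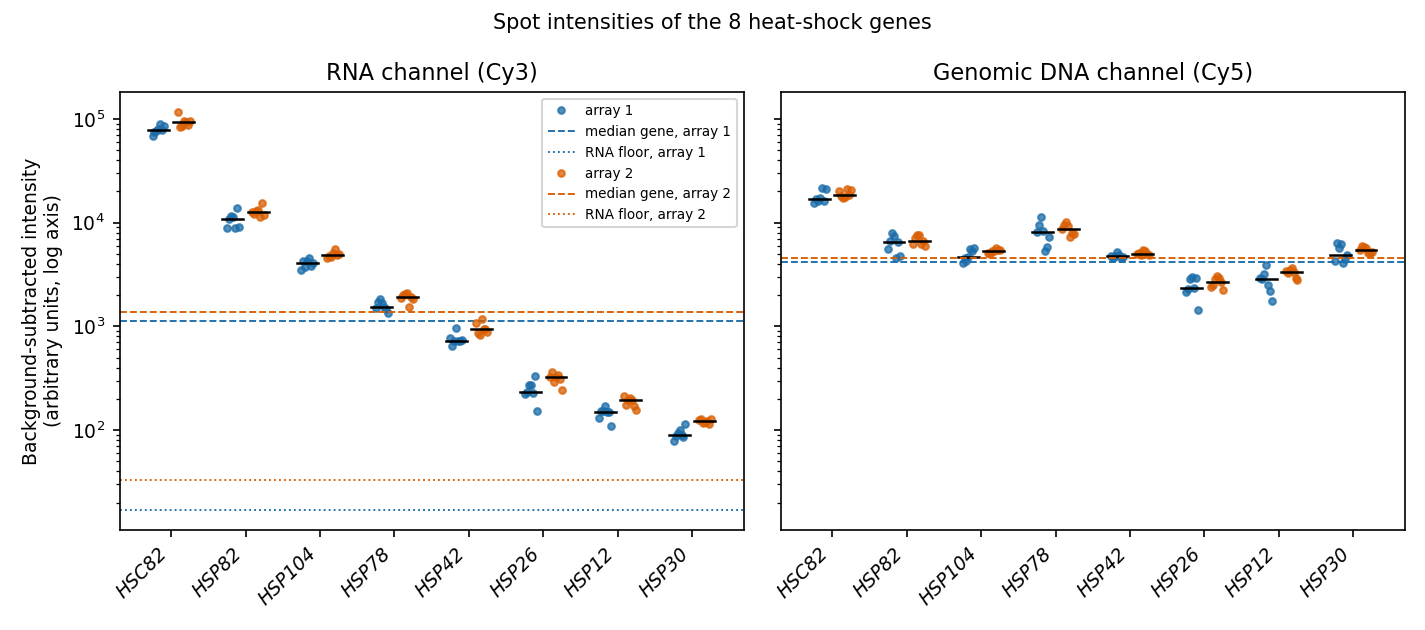
Background-subtracted intensity of every spot (log axis, arbitrary units) of the 8 genes in the RNA channel and the genomic DNA channel, by array. Black bars are medians of 7 spots, dashed lines the median gene and dotted lines the RNA floor. RNA medians run from 90.1 (HSP30, array 1) to 92760 (HSC82, array 2), and DNA medians from 2357 (HSP26, array 1) to 18495 (HSC82, array 2).

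HSC82 (YMR186W) and HSP82 (YPL240C) encode the cytosolic Hsp90 proteins, which are nearly identical in sequence. HSC82 is known as the constitutive form and HSP82 as the form that heat induces strongly. The 7 spots of HSC82 had a lowest, median and highest RNA intensity of 68996, 78990 and 90337 on array 1, and of 83310, 92760 and 116977 on array 2. Those of HSP82 were 8802, 10867 and 13755 on array 1, and 11415, 12568 and 15464 on array 2. Every HSC82 spot was brighter in RNA than every HSP82 spot on either array. HSC82 was at percentile 97.4 of all gene levels, and its level was 3.99 on array 1 and 3.87 on array 2. HSP82 was at percentile 92.5, with levels of 2.54 and 2.51. The level of HSC82 was thus 15.2-fold that of the median gene and the level of HSP82 5.76-fold.

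HSC82 exceeded HSP82 by 1.44 on array 1 and 1.36 on array 2 on the log2 scale of the levels, or 1.40 ± 0.06 (SD, n = 2), a 2.64-fold difference. In a limma fit with HSP82 in place of the median gene, HSC82 differed from it at an adjusted p of 0.000133 over 6249 genes. In that fit, 6.77% of genes were above HSP82 and 91.5% below it at an adjusted p under 0.05. Most genes thus differed from HSP82, so the adjusted p alone carries little information, as in the other pair fits below. The genomic DNA signal also differed within the pair. DNA medians of HSC82 were 16960 and 18495 on the arrays, at percentile 98.4 of all genes, against 6577 and 6624 for HSP82, at percentile 79.6. HSC82 DNA was thus 2.58-fold and 2.79-fold that of HSP82, and its RNA 7.27-fold and 7.38-fold. With the RNA channel alone, the difference became 2.87 on the log2 scale. Signal at the probes of these near-identical copies may be shared, which was not tested.

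HSP104 (YLL026W) encodes the cytosolic disaggregase, needed for survival of severe heat and for the inheritance of yeast prions. Its spots had a lowest, median and highest RNA intensity of 3522, 4117 and 4564 on array 1, and of 4593, 4907 and 5612 on array 2. Its level was 1.59 on array 1 and 1.49 on array 2, or 1.54 ± 0.08 (SD, n = 2), and placed it at percentile 81.3. HSP104 was thus above the median gene 2.91-fold without applied stress.

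HSP78 (YDR258C) encodes the ClpB-type chaperone of the mitochondrial matrix. Its spots had a lowest, median and highest RNA intensity of 1357, 1531 and 1854 on array 1, and of 1549, 1913 and 2115 on array 2. The DNA signal of its probe was high, at percentile 89.6, with medians of 8186 and 8628. Its level was -0.59 on array 1 and -0.57 on array 2, below the median gene and short of the threshold of 1. With the RNA channel alone, it lay on the other side of the median gene, at 0.45. Its side therefore depended on whether the DNA channel was used.

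HSP104 exceeded HSP78 by 2.18 and 2.06 on the arrays, or 2.12 ± 0.09 (SD, n = 2) on the log2 scale of the levels, which is 4.35-fold. The adjusted p was 0.000158 in limma with HSP78 in place of the median gene, a fit in which 59.8% of genes were above HSP78 and 35.4% below it. With the RNA channel alone, the difference was 1.39 with the same sign. RNA alone compares different probes, whose DNA signals differed: HSP104 DNA was 0.574-fold and 0.618-fold that of HSP78 on the arrays. The cytosolic form was higher than the mitochondrial form in level on both arrays.

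HSP42 (YDR171W) and HSP26 (YBR072W) encode the cytosolic small heat-shock proteins. Hsp42 is known to act also at normal growth temperature, while Hsp26 becomes active on heating. HSP42 spots had a lowest, median and highest RNA intensity of 653, 730 and 954 on array 1, and of 831, 933 and 1191 on array 2. HSP26 spots had 154, 231 and 335 on array 1, and 245, 322 and 366 on array 2. RNA of HSP42 was thus brighter than that of HSP26 at every spot, and both were dimmer than the median gene, at 1135 and 1390. The level of HSP42 was -0.86 and -0.83 on the arrays and not called. The level of HSP26 was -1.50 and -1.46, or -1.48 ± 0.03 (SD, n = 2), at percentile 24.8 and called below.

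HSP26 lay below HSP42 by -0.64 and -0.63 on the arrays, or -0.64 ± 0.01 (SD, n = 2) on the log2 scale of the levels. HSP42 was thus 1.56-fold higher. The adjusted p was 0.000481 in limma with HSP42 in place of the median gene, where 64.5% of genes were above HSP42 and 31.3% below it. The DNA signal of HSP26 was low, at percentile 11.2, with medians of 2357 and 2651, against 4792 and 5023 for HSP42. With the RNA channel alone, the difference was -1.60, or 3.02-fold.

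**Figure D2:**
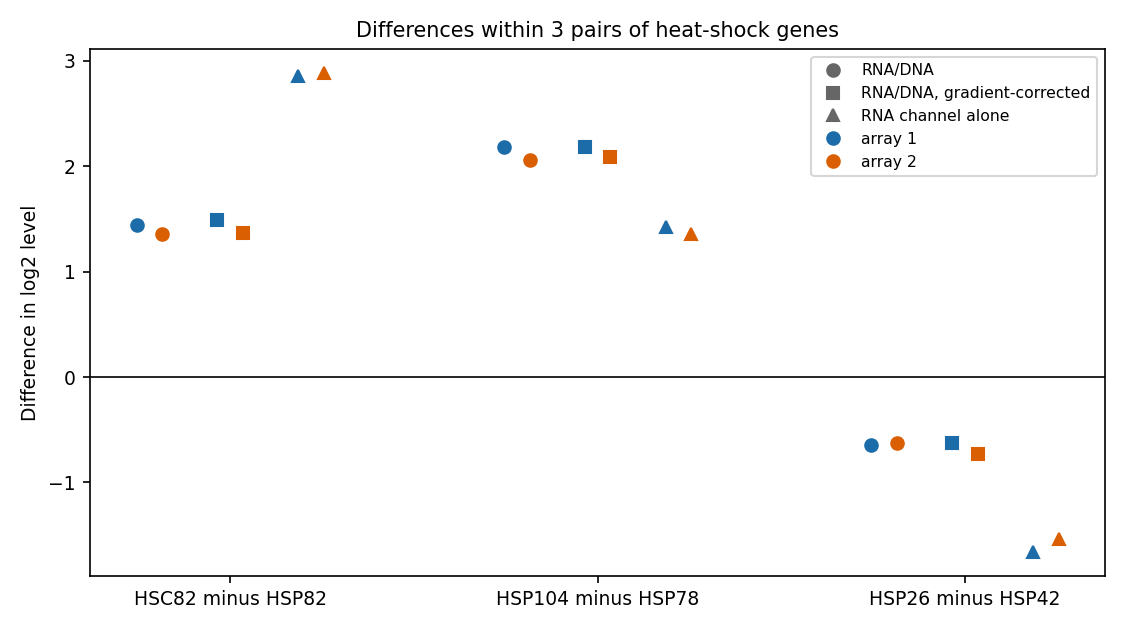
Difference in log2 level within 3 pairs of heat-shock genes on each array, from RNA/DNA, from gradient-corrected RNA/DNA and from the RNA channel alone. HSC82 minus HSP82 is 1.40 by RNA/DNA and 2.87 by RNA alone, HSP104 minus HSP78 2.12 and 1.39, and HSP26 minus HSP42 -0.64 and -1.60, with the same sign on both arrays.

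HSP12 (YFL014W) and HSP30 (YCR021C) encode membrane-associated stress proteins and were the lowest of the 8. Hsp12 is a small, largely unfolded protein that stabilises membranes, and its gene is a standard reporter of Msn2 and Msn4 activity. HSP12 spots had a lowest, median and highest RNA intensity of 109, 151 and 172 on array 1, and of 157, 194 and 211 on array 2. Its level was -2.38 on array 1 and -2.53 on array 2, or -2.45 ± 0.11 (SD, n = 2), at percentile 17.8. The gap of 0.15 between arrays was the widest of the 8 genes, and the median gap over all genes was 0.060.

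Hsp30 is a plasma membrane protein that restrains the proton pump Pma1 during stress. HSP30 spots had a lowest, median and highest RNA intensity of 79.0, 90.1 and 113 on array 1, and of 115, 122 and 128 on array 2. They lay above the floor for RNA detection, which was set at 3 SD of the negative control spots, or 17.05 on array 1 and 32.9 on array 2. The RNA median was 5.28-fold the floor on array 1 and 3.72-fold on array 2. RNA of HSP30 was therefore detected, as was that of all 8 genes. Its level was -3.92 and -3.84, at percentile 12.3, so that the median gene was 14.7-fold higher.

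In order of level, the genes ran HSC82, HSP82, HSP104, HSP78, HSP42, HSP26, HSP12 and HSP30. The smallest step was that between HSP78 and HSP42, at 0.27 on array 1 and 0.26 on array 2, and the spot values of these genes overlapped on both arrays. In the other 6 steps, the spot values of the neighbours did not overlap on either array. Those steps were 1.40 ± 0.06 from HSC82 to HSP82, 0.99 ± 0.05 from HSP82 to HSP104, 2.12 ± 0.09 from HSP104 to HSP78, 0.64 ± 0.01 from HSP42 to HSP26, 0.97 ± 0.13 from HSP26 to HSP12 and 1.43 ± 0.17 from HSP12 to HSP30 (SD, n = 2). Each step exceeded its spread between arrays. With 2 arrays, an exact two-sided sign-flip permutation test of a single difference cannot go below p = 0.5. Spots share an array and a probe, so they are not replicates of the culture.

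**Figure D3:**
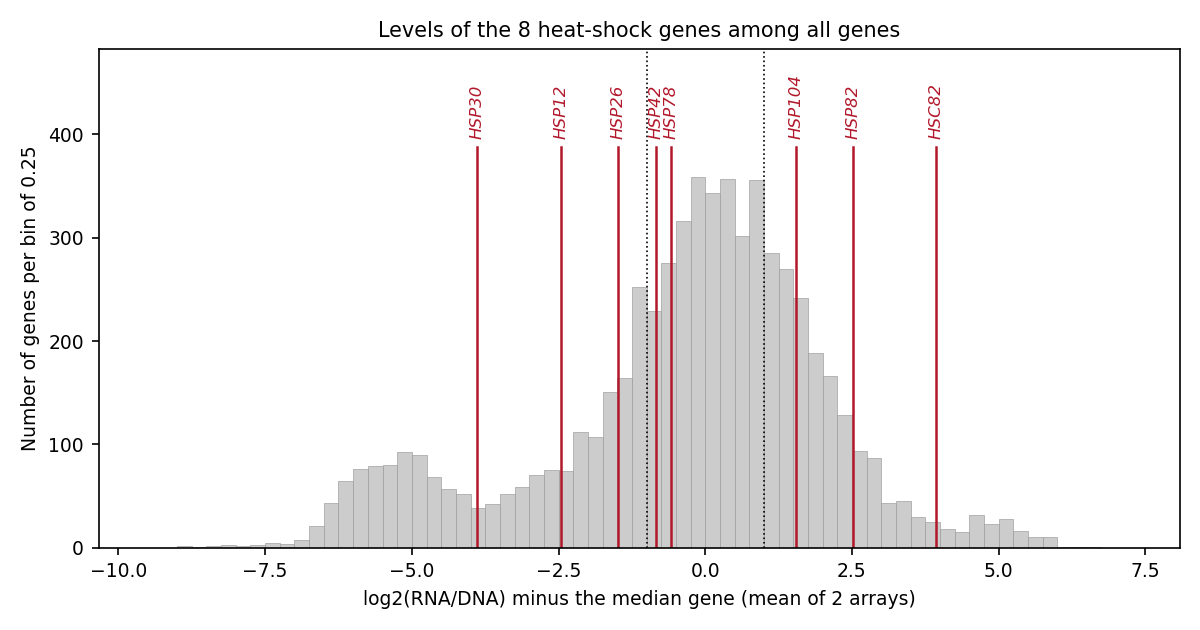
Histogram of the levels of 6250 genes, as log2(RNA/DNA) minus the median gene (mean of 2 arrays), with the 8 heat-shock genes as red lines and dotted lines at the thresholds of -1 and 1. HSC82, at 3.93, lies in the upper tail and HSP30, at -3.88, in the dip before the group of lowest genes.

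The partners of Hsp90 were mostly above the median gene. Of 12 co-chaperone genes, 8 were above, 0 below and 4 not called, with a median level of 1.66. The shares over all genes were 28.2% above and 31.2% below. HCH1 and AHA1, which stimulate the Hsp90 ATPase, were at 3.39 ± 0.02 and 2.16 ± 0.08 (SD, n = 2). CDC37, which brings kinases to Hsp90, was at 2.61 ± 0.03. The prolyl isomerase CPR6 was at 2.58 ± 0.10 and its relative CPR7 at 1.30 ± 0.08, or 0.92 with the RNA channel alone. STI1, which links Hsp90 to Hsp70, was at 2.25 ± 0.01, and SBA1, the yeast p23, at 2.02 ± 0.07. PPT1, the phosphatase that acts on Hsp90, was at 1.001 ± 0.09, on the threshold. It was 0.94 on array 1 alone, and fell short under 4 fitted settings, with 0.81 as the lowest. CNS1 was at 0.74 ± 0.02, and passed the threshold at 1.09 when RNA alone was used. SGT1, a kinetochore assembly partner, was at 0.09 ± 0.01 and not called. TAH1 and PIH1, of the R2TP complex, were not called, at -0.10 ± 0.02 and -0.23 ± 0.02.

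Partners of Hsp104 included high and low genes. Of 10 Hsp70, Hsp110, Hsp40 and exchange factor genes, 6 were above, 3 below and 1 not called, with a median level of 1.82. By comparison, 28.2% of all genes were called above and 31.2% below. SSA2 and SSE1, an Hsp70 and an Hsp110, were highest at 3.75 ± 0.06 and 3.51 ± 0.06. SSE2 and SSA3, the stress-induced counterparts, were lowest at -1.40 ± 0.05 and -1.09 ± 0.09, and SSA3 was -0.91 with the RNA channel alone. Chaperones of the mitochondrial matrix, where Hsp78 works, included 6 above, 0 below and 3 not called of 9, with a median of 1.56. HSP10 and the Hsp70 SSC1 were highest, at 3.40 ± 0.06 and 3.26 ± 0.05. MCX1, an AAA+ protein related to bacterial ClpX, was at -0.83 ± 0.02 and ECM10 at -0.56 ± 0.04, neither called. ECM10 was called below, at -1.29, when RNA alone was used. MCX1 was called at -1.03 without the genes at the RNA floor. HSP78 was at -0.58, or 0.45 when RNA alone was used.

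Most Hsf1 targets were above the median gene and most Msn2 and Msn4 targets below it. Both lists were chosen with earlier results of these data known. Across the 6250 genes, 28.2% were called above and 31.2% below. Of 17 other genes known as Hsf1 targets, 13 were above, 1 below and 3 not called, with a median level of 2.31. SSA2 and SSE1 were highest, CUR1, a sorting factor for misfolded proteins, was at 0.29 ± 0.06 and not called, and SSA4, a heat-induced Hsp70, was at -1.01 ± 0.05, with -0.97 on array 2 alone. SSA4 was not called under 4 settings, with -0.96 as the value closest to the median gene. Of these 17 genes, 14 also stood in another list here. Of 18 other genes known as Msn2 and Msn4 targets, 3 were above, 11 below and 4 not called, with a median of -1.43. DDR2, a heat- and damage-responsive gene, was at -5.03 ± 0.0050, with RNA medians of 54.7 and 63.8 on the arrays, against floors of 17.05 and 32.9. XBP1, a stress repressor, had RNA at the floor on at least 1 array, with a level of at most -4.91. SOD2, mitochondrial superoxide dismutase, and GRE3, an aldose reductase, were highest at 2.25 ± 0.04 and 1.45 ± 0.03, and GRE3 was 0.90 with the RNA channel alone. The levels given for the Msn2 and Msn4 targets ran from -5.03, at percentile 7.63 of all genes, to 2.25, at percentile 90.2. HSP12, at -2.45, and HSP26, at -1.48, lay within that wide range, as did HSP104, HSP78, HSP42 and HSP30.

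Most regulator genes were not called. Of 9 regulator genes, 1 was above, 2 below and 6 not called, with a median of 0.35. Among all 6250 genes, 2538 were not called, with 28.2% above and 31.2% below. HSF1 was at -1.18 ± 0.04, but at 0.19 and not called with the RNA channel alone. MSN2 was at 0.16 ± 0.02, and MSN4 at -0.02 ± 0.02. MSN4 was called below, at -1.83, when RNA alone was used, and its DNA signal was at percentile 0.464 of all genes. YAP1, a regulator of the oxidative stress response, was highest at 1.07 ± 0.03, or 0.88 without genes at the RNA floor, and HOG1, the kinase of the osmotic response, followed at 0.78 ± 0.0043 and passed the threshold, at 1.94, when RNA alone was used. GIS1 was lowest at -1.61 ± 0.06. With RNA alone, 3 of the 9 were above and 2 below.

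Other genes of like name or family ran from at most -7.89 to 3.40, a wider range than that of the 8. Of 6 other genes named HSP, 3 were above, 2 below and 1 not called. Shares over all genes, for this and the lists below, were 28.2% above and 31.2% below. HSP10 and HSP60, the mitochondrial chaperonin, were at 3.40 ± 0.06 and 2.61 ± 0.0043, and HSP150, a cell wall protein, at 3.01 ± 0.02. HSP31 was at -0.18 ± 0.02 and not called, or -1.48 with the RNA channel alone. HSP33 and HSP32 had RNA at the floor on at least 1 array, with levels of at most -7.89 and -6.29. Such a bound also depends on the DNA signal, which was at percentile 98.5 for HSP33 and 75.6 for HSP32. SNO4, of the same family of near-identical subtelomeric copies, was at most -6.30. The relatives of HSP30 were higher than it by more than their spread between arrays. MRH1 was at 2.80 ± 0.10 and YRO2 at -1.07 ± 0.04, or -0.95 without spots marked as population outliers, against -3.88 for HSP30. In the list of relatives, which held MCX1, YRO2, MRH1, SNO4 and HSP31, 1 gene was above, 2 below and 2 not called. SNO4, one of those below, and HSP31, one of those not called, belong to a family that none of the 8 genes is in. Among 5 hydrophilins and desiccation genes, a group that resembles Hsp12 in composition, 2 were above, 2 below and 1 not called. SIP18 and GRE1 were at -4.60 ± 0.18 and -4.14 ± 0.06, lower than HSP12 at -2.45, and GON7 and NOP6 were at 1.85 ± 0.16 and 1.42 ± 0.10. RNA medians of SIP18 were 29.5 on array 1 and 38.4 on array 2, near the floors of 17.05 and 32.9.

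**Figure D4:**
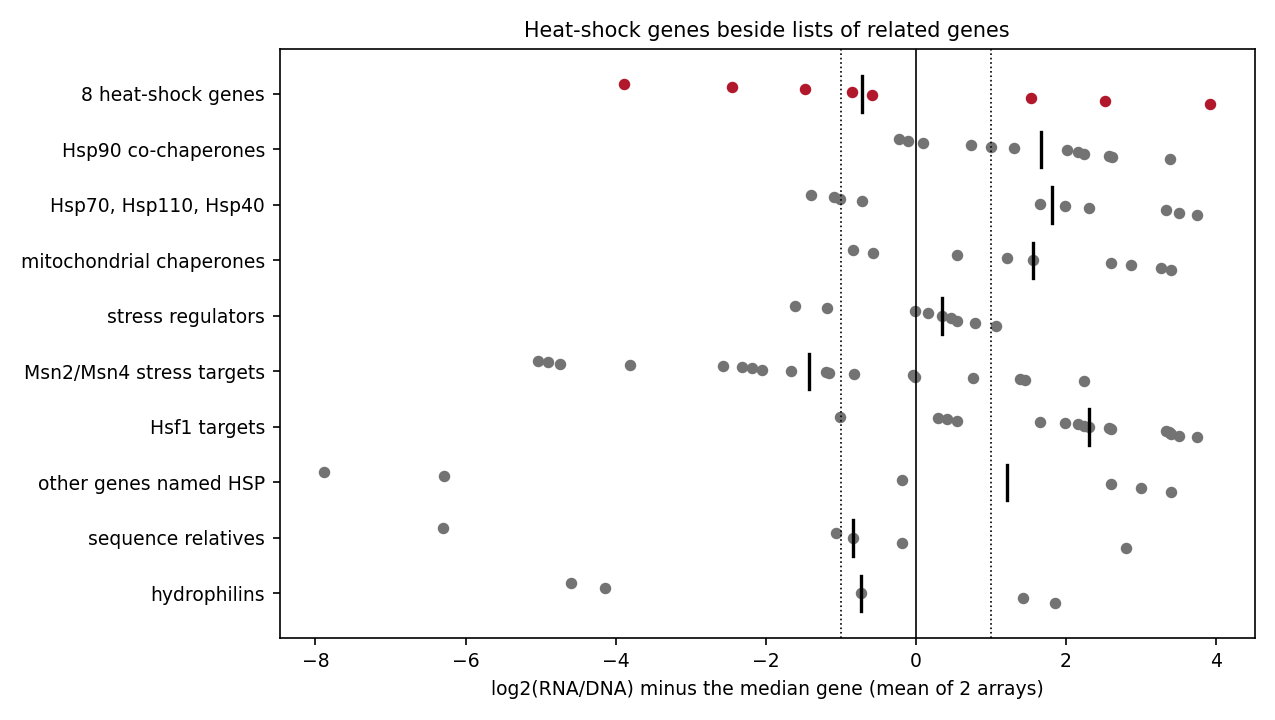
Level of each measured gene, as log2(RNA/DNA) minus the median gene (mean of 2 arrays), in the 8 heat-shock genes (red) and in lists of related genes (grey). Black bars are list medians and dotted lines mark -1 and 1. The Hsf1 targets have a median of 2.31, the Msn2 and Msn4 targets one of -1.43, and levels of HSP32, HSP33, SNO4, GAC1 and XBP1 are upper bounds.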

How the data were processed

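Per the submitters' processing notes, the software was Agilent Feature Extraction 10.5.1.1. The deposited intensity values used are spot means minus a fitted spatial background, per the file headers. Flags for saturation, non-uniformity and signal above background come with them, per the file headers. Spots with DNA well above background, no saturation and no non-uniformity on both arrays were kept, which left 43721 of 43792 gene spots and 6250 of 6256 genes. Of 56 spots of the 8 genes, 56 were kept. RNA under 3 SD of the 153 negative control spots was raised to that floor, and such genes are given as upper bounds. Median RNA intensities were 1135 and 1390, and 2 arrays limit the precision of every value.

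R 4.3.3 and limma 3.58.1 were used to test levels, in a fit of the intercept without trend and with Benjamini-Hochberg adjustment over all genes, with calls made at a distance of at least 1 on the log2 scale and an adjusted p under 0.05. Pairs were tested the same way with the second gene in place of the median gene, at the adjusted p alone. The test was tried on simulated data. The remaining steps used pandas 2.3.3, numpy 2.4.6 and matplotlib 3.10.9 under Python 3.11.15. Locus tags were matched to RefSeq assembly R64 for symbols: 5756 matched and 500 kept the name in the files. The build is not given in the sources used here, and coordinates are left out. The 8 genes and the lists were chosen with earlier results of these data known. Named are all 8 genes, all co-chaperones, relatives and HSP genes, and up to 2 highest and 2 lowest of each other list. MSN2, MSN4, GAC1 and the flanking genes fall outside that rule and were chosen after their values were seen. Alternatives changed the signal, background, spot summary, spot filter, floor, pseudocount, normalization, reference channel, test, thresholds and arrays used.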

Additional observations from a re-analysis of the deposited data

How the results depend on the processing

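The order of the 8 heat-shock genes was the same under all 11 alternative settings fitted, of which the one without population outlier spots was chosen after seeing the data. HSP78 was above the median gene at 0.45 by RNA alone, against -0.58 by RNA/DNA, and the cause was not tested. HSP42, at -0.84, passed the threshold at -1.04 without the genes at the RNA floor, a setting that by construction moved the median gene and lowered shared levels by 0.19 (a shift of -0.19). HSC82 ranged from 3.73 to 6.09 over the settings and HSP30 from -4.08 to -3.50. The 6.09 came from the RNA channel alone, which is not a ratio to DNA. By RNA/DNA, the highest value of HSC82 in a fitted setting was 3.93. Under these 11 settings, the 3 pair differences kept their sign and call, from 1.37 to 2.87 for HSC82 against HSP82, 1.39 to 2.13 for HSP104 against HSP78 and -1.60 to -0.54 for HSP26 against HSP42. With a log2 threshold of 2, 774 genes were above and 1278 below, and 18 and 13 of the listed genes, against 29 and 22. With the adjusted p alone, 2944 genes were above and 2952 below, and 5 of the 8 were below in place of 3. Of 270 counts by list, 25 moved by more than 1.5 times. Leaving out either array leaves 1 array with no test, and its values are those printed per array. No paired analysis was possible because there is 1 group of 2 arrays. RNA signal over background limits HSP30 most.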

Other observations

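Levels of the genes next to the 8 heat-shock genes on the RefSeq map ranged widely. Of 16 flanking genes measured, 4 were above the median gene, 3 below and 9 not called, and none overlapped its heat-shock neighbour. Beside these counts, the shares over all genes were 28.2% above and 31.2% below. HSC82, at 3.93, lay between RTP1 at 0.22 ± 0.03 and YMR187C at -0.86 ± 0.02 (SD, n = 2). HSP82, at 2.53, lay between CIN2 at 0.40 ± 0.03 and YAR1, which was also called above, at 1.48 ± 0.04. HSP104, at 1.54, lay between ISA1 at -0.95 ± 0.03 and PAU17 at -2.78 ± 0.04. HSP78, at -0.58, lay between RKM4 at 0.78 ± 0.02 and YAP6 at -0.93 ± 0.01, neither called. HSP42, at -0.84, lay between SEC7, of Golgi traffic, at 2.25 ± 0.03 and SUP35, a translation termination factor, at 2.36 ± 0.01. HSP26, at -1.48, lay between YBR071W at 0.31 ± 0.02 and RDH54 at 0.86 ± 0.03. HSP30, at -3.88, lay between HTL1, of the RSC chromatin remodeller, at 1.25 ± 0.09 and YCR022C at -4.86 ± 0.05. HSP12, at -2.45, lay between YFL015C at -5.11 ± 0.22 and IES1 at -0.0039 ± 0.02. YCR022C and YFL015C were called below, like HSP30 and HSP12 beside them. Other calls were unlike: PAU17 was below beside HSP104, which was above, and HTL1 above beside HSP30, which was below. SEC7 and SUP35 were called above beside HSP42, which was not called. The flanking genes were looked up after the levels of the 8 genes had been seen, and no test of their likeness was run.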
